A study of Mus musculus with 2 samples.

Results

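Scavenger receptors and markers of alternative activation were examined in peritoneal macrophages with and without the phosphatase PAC1, after lipopolysaccharide (LPS). The set was defined by gene name: Msr1, Marco, Mrc1, Chil3, Cd68, Clec10a, Il4ra, Tgm2, F13a1 and Folr2, with all probe sets annotated to each. Of these 10 genes, 8 were matched to 10 probe sets, out of 8220 genes on the array with a single symbol. Clec10a and F13a1 were not matched and were not analysed here. Chil3 and Msr1 had already been noted as lower in the knockout when the set was drawn up, so their values are a description.

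The data were 2 Affymetrix arrays, 1 from Pac1-/- and 1 from Wild-type (Pac1+/+) macrophages of age-matched littermates. Both groups received 2 ml of 3% thioglycollate in the peritoneum 4 days before lavage, were purified by adherence for 2 hours and were treated with 100 ng/ml LPS for 6 hours, per the labels. PAC1 is the product of Dusp2, a nuclear phosphatase that removes phosphate from MAP kinases. The sources used here do not give the strain, the age, how the allele was made, how many mice each array stands for or whether their RNA was pooled. With 1 array per genotype there is no replicate check and no error on any value, so no test was made, and "higher" and "lower" refer to these 2 arrays. Unstimulated cells were not analysed here.

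Scavenger receptors are surface or lysosomal proteins that bind modified lipoproteins, bacterial surfaces and dying cells, and they are a defining trait of macrophages. Alternative activation is the state that interleukin-4 and interleukin-13 induce through the IL-4 receptor and the transcription factor STAT6, and in mice it is recognised by mannose receptor, arginase and the chitinase-like protein Ym1. LPS acting on Toll-like receptor 4 drives macrophages towards the inflammatory state instead, through NF-kB and through MAP kinases that activate AP-1.

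The cells carried the transcripts that define macrophages. The 9 macrophage markers matched (Csf1r, Adgre1, Itgam, Cd14, Fcgr1, Lyz2, Cd68, Ctsd and Mertk) were above the floor on both arrays. The floor, 36.4, is the median signal over both arrays together, and values below it were treated as not measured. Signals are MAS5 intensities in arbitrary units, and ratios are log2 of knockout over wild type. Dusp2 itself read 76.8 in Pac1-/- cells and 333 in wild-type cells, or 23.1% of the wild-type level. The sources do not say whether the deletion covers its probes. Trimmed means of the arrays were equal, and the median log2 ratio over the 5119 genes with a signal above the floor on at least 1 array (eligible genes) was 0.02.

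Promoter sequences of 4 genes are shown before the values, a pair of neighbouring genes that resemble each other and a pair of members whose windows hold motifs of macrophage factors. Chil3 had the lowest ratio of the set, and its neighbour Chil4, which encodes the related protein Ym2, has no probe set of its own matched on this array. RefSeq (GRCm38.p6) places them next to each other on chromosome 3, with 0 listed genes between them. Within the 250 bases before each annotated start, 201 of 221 aligned bases were identical (91.0%, with 2 gap positions inside the alignment). In both sequences the capitals mark the 20 mismatched bases.
Chil3 (chr3:106167565-106167814, minus strand): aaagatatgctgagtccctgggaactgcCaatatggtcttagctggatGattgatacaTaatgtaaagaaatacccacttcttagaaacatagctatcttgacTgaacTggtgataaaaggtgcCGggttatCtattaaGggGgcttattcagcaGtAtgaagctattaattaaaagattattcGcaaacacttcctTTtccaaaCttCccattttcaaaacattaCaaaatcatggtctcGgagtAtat
Chil4 (chr3:106219480-106219729, minus strand): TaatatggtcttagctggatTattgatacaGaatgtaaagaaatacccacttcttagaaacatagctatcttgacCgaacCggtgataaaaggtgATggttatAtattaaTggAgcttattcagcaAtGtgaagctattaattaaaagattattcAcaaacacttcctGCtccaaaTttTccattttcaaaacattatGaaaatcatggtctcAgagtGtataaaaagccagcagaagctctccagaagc
These bases lie before the starts and are not part of the transcripts that the probes bind. Probe sequences were not used here, and whether the Chil3 probe set also binds Chil4 transcripts was not tested.

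Cd68, which was higher on the knockout array, and Mrc1, which was lower, serve as the other pair. In Cd68 the capitals mark 2 copies of the AP-1 motif TGANTCA, starting 149 and 24 bases before the annotated start. In Mrc1 they mark 3 copies of GAGGAA, the core bound by the myeloid factor PU.1. These lie on the opposite strand and read TTCCTC, starting 180, 167 and 35 bases before the start. Cd68 also holds GAGGAA, starting 225 bases before its start and left in lower case.
Cd68 (chr11:69666171-69666420, minus strand): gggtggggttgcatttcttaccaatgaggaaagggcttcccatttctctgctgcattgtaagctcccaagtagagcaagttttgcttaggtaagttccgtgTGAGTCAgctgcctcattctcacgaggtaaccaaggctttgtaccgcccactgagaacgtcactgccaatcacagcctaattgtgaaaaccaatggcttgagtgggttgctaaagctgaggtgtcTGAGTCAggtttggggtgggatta
Mrc1 (chr2:14229164-14229413, plus strand): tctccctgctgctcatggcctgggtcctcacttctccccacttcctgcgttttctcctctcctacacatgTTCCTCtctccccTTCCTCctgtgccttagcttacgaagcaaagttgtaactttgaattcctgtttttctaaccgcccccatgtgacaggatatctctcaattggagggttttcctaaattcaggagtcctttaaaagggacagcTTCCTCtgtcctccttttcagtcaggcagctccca
Promoters were found for 6 of the 8 genes (Marco, Mrc1, Chil3, Cd68, Il4ra and Folr2, the last with 2 starts). These gave 7 windows. Searched on both strands, TGANTCA occurred in 2 of the 7 windows, those of Cd68 and 1 start of Folr2 (as TGACTCA). Of all 32851 promoters of that length, 6.75% held it. The PU.1 core occurred in 3 of the 7 windows, those of Marco, Mrc1 and Cd68, against 23.3% of promoters. The STAT6 motif was searched only as TTC and GAA with 4 bases between them. In that form it occurred in 0 of the 7 windows against 5.85% of promoters. Other spacings were not searched. A letter match is not evidence that a factor binds, and the absence of one describes these windows only.

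Among the 8 genes, Chil3 and Msr1 were 1.5-fold or more lower on the knockout array and the rest were at most 1.32-fold apart. Ratios were below 0 for 5 genes (Chil3, Msr1, Tgm2, Mrc1 and Marco) and above 0 for 3 (Folr2, Cd68 and Il4ra). Of all eligible genes, 47.8% were below 0 and 52.2% above. Only Chil3 was 2-fold or more lower (1 of 8, against 1.07% of eligible genes), and 0 of 8 were 2-fold or more higher (against 1.23%). At 1.5-fold, 2 of 8 were lower (against 5.72%) and 0 higher (against 6.37%). Because Chil3 and Msr1 helped to define the set, nothing is read from these counts. The median log2 ratio of the 8 genes was −0.22, and all 8 were eligible.

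**Figure D1:**
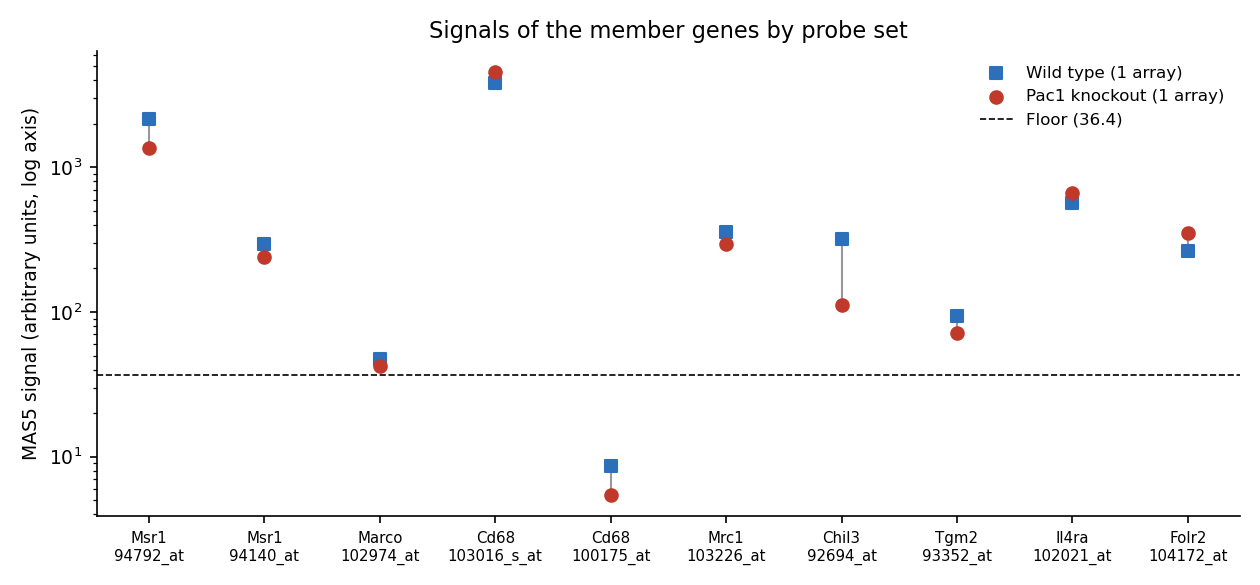
MAS5 signal (arbitrary units, log axis) of each of the 10 probe sets with circles for the knockout and squares for the wild type, with the floor as a dashed line. Chil3 shows the widest gap among probe sets above the floor, both Msr1 probe sets are lower in the knockout, and the second Cd68 probe set lies under the floor on both arrays.

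Msr1 encodes the class A macrophage scavenger receptor, a trimeric receptor for modified low-density lipoprotein and bacterial lipids. It was measured by 2 probe sets. The brighter one, 94792_at, read 1366 in the knockout against 2171, a log2 ratio of −0.67, or 62.9% of the wild-type level. The dimmer one, 94140_at, read 240 and 296, a log2 ratio of −0.30, or 81.1%. Both were lower in the knockout, but by different amounts, and their mean was −0.49, which is below 1.5-fold. Taken by the brighter probe set, 221 of the 5119 eligible genes were as low or lower. Differences of this size were less common among bright genes. Where the brighter signal was above 1000, 7 of 533 genes were as low, Msr1 included, and 1.5% were 1.5-fold or more lower. Msr1 had been noted as lower when the set was drawn up, so these ranks only describe it.

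Marco encodes the other class A receptor of the set, which binds bacteria and inhaled or circulating particles and is inducible by bacterial products. Its single probe set read 42.5 in the knockout against 47.0, a log2 ratio of −0.15. Both signals were only just above the floor, and 29.4% of the genes with a brighter signal between the floor and 100 were as low or lower. At this signal no difference in Marco could be told from that of dim genes at large.

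Cd68 encodes macrosialin, a heavily glycosylated protein of late endosomes and lysosomes that is used as a general macrophage marker and is grouped with the class D scavenger receptors. Its bright probe set, 103016_s_at, read 4582 in the knockout against 3821, 1.20-fold higher (log2 ratio 0.26). Where the brighter signal was above 1000, 60 of 533 genes (11.3%) were as high or higher. The suffix of 103016_s_at marks probes shared between transcripts. The other, 100175_at, read 5.40 and 8.60 and gave no ratio, since both signals were below the floor. The other 8 macrophage markers were also above 0 (against 52.2% of eligible genes), between 0.06 for Adgre1 and 0.36 for Fcgr1. The 9 had a median of 0.24. With the arrays scaled to the same median, 8 of these 9 were above 0 and their median was 0.12. Their summed signals were 38109 (knockout) and 32528 (wild type). In bulk RNA, more cells of a type and more RNA per cell cannot be told apart. With 1 array per genotype, neither can be told from variation between arrays. Lamp2, a lysosomal membrane protein related to macrosialin, was 1.17-fold higher by its brightest probe set (2221 against 1892, log2 ratio 0.23). With its probe sets averaged, the log2 ratio of Lamp2 was only 0.09.

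Mrc1 encodes the mannose receptor, an endocytic C-type lectin that takes up glycoproteins and microbes and is a classical marker of IL-4-treated macrophages. It read 295.2 in the knockout against 360.5, 81.9% of the wild-type level and a log2 ratio of −0.29. As low a ratio occurred in 169 of the 993 genes whose brighter signal was between 300 and 1000 (17.0%).

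Chil3 encodes Ym1, a secreted chitinase-like protein that accumulates in alternatively activated mouse macrophages and is also known from neutrophils. Its single probe set, 92694_at, read 112 in the knockout against 319.8. It was 2.85-fold lower in the knockout, at 35.1% of the wild-type level, with a log2 ratio of −1.51. Both signals were above the floor. Of 5119 eligible genes, 10 were as low, Chil3 included. In its range of signal 3 of 993 were as low and 0.604% were 2-fold or more lower. Chil3 had been noted as lower when the set was drawn up, so these ranks only describe it.

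The preparations were 92 to 95% Mac-1 positive per the labels, and Mac-1 is carried by neutrophils as well as macrophages, so neutrophil markers are given beside Chil3. Of 9 neutrophil markers matched, 6 were eligible, 3 of them above and 3 below 0, and their list's summed signals (all 9) were 1059 (knockout) and 1110 (wild type). The granule genes Ltf (2.00 in the knockout, 3.80 in the wild type), Ngp (9.70 and 9.30) and Mpo (12.3 and 14.9) were below the floor on both arrays. Camp read 85.7 against 61.9 (log2 ratio 0.47) and S100a8 367 against 386 (−0.07). For Csf3r, 1 probe set read 315 against 408 (−0.37) and another 305 against 358 (−0.23), while the dimmest read 204 against 168 (0.28). The probe sets of Lcn2, a siderophore-binding protein of neutrophil granules that macrophages also make after LPS, disagreed. The brighter one, whose suffix marks possible cross-hybridisation, read 175.5 against 149.7 (0.23), and the other 45.0 against 143 (−1.67), a ratio lower than that of Chil3. Without probe sets of such suffixes, 2 of the 6 markers were above 0 and 4 below, 1 of them (Lcn2) 2-fold lower. The part of neutrophils in the Chil3 value was not tested. Of the other chitinase-like genes, Chil1, Chia1 and Ovgp1 were matched, and all 3 were below the floor on both arrays. Of 6 markers of resident peritoneal macrophages matched, 3 were eligible, 1 above and 2 below 0. Only Serpinb2 (1560.5 in the knockout, 1838.4 in the wild type, log2 ratio −0.24) was above the floor on both arrays. Alox15 (5.70 and 36.6) and Selp (40.5 and 12.2) each had 1 signal below the floor, so their ratios are bounds. The median, −0.01, is the bound of Alox15, whose wild-type signal was barely above the floor, and it does not measure a lack of difference. The summed signal of all 6 markers, 1661 (knockout) and 1934 (wild type), was mostly that of Serpinb2. Gata6, the factor that defines those cells, was below the floor on both arrays.

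Markers of other cells that a lavage could hold also differed between the arrays. Mesothelial and stromal markers had 7 eligible genes of 11, 2 above and 5 below 0, and summed signals of 1374 (knockout) and 1722 (wild type). Acta2, smooth-muscle actin, was at 52.2 against 133 (−1.35), and Pdgfra, a fibroblast receptor, at 236 against 432 (−0.88). The 2 above 0 were Dcn, at 318 against 247 (0.37), and Col1a2, at 246 against 232 (0.09). Msln, Wt1, Krt8 and Krt19 were below the floor on both arrays. Dendritic cell markers had 4 eligible genes of 7, 1 above and 3 below 0 (median −0.33, summed signals 626 and 714), with Zbtb46 below the floor. The probe sets of Flt3, whose suffixes both mark possible cross-hybridisation, disagreed. The brighter read 125 against 158 (−0.34) and the other 109 against 103 (0.09). With probe sets averaged, the median of the dendritic cell list was −0.22. B cell markers had 7 eligible of 7, 2 above and 5 below 0 (summed signals 649 and 717). Among them Ighm read 123 against 230 (−0.90) and Ms4a1 52.2 against 87.4 (−0.74), while Cd79a was higher by a factor of at least 2.75. Of 6 T and NK cell markers 1 was eligible, Cd4, lower by a factor of at least 2.05, and the Cd3 genes were below the floor. Mast cell and basophil markers had 4 eligible of 8, 3 above and 1 below 0 (summed signals 1044 and 1100). Tpsb2 read 192.4 against 115.9 (0.73), and Hdc, the 1 below 0, read 555.5 against 756.7 (−0.45). Of 3 eosinophil markers 1 was eligible, Prg2, higher by a factor of at least 2.75 by its brighter probe set. Its other probe set (4.5 in the knockout, 4.6 in the wild type) and the peroxidase gene Epx were below the floor on both arrays. The part of these cells in the values of the 8 genes was not tested.

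**Figure D2:**
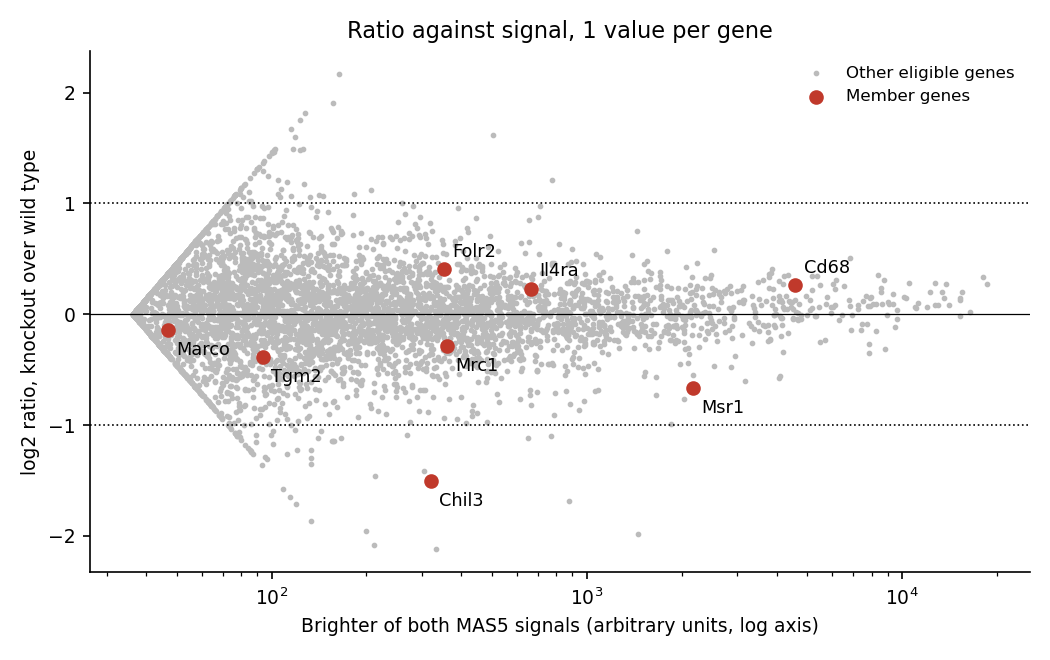
Log2 ratio of knockout over wild type (vertical axis) against the brighter of the 2 signals (arbitrary units, log axis), 1 point per eligible gene, members in red, dotted lines at 2-fold. Chil3 (−1.51) lies near the bottom among genes of like signal, Msr1 (−0.67) at the lower edge of the band of bright genes, and the other 6 members within the band.

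Tgm2 encodes tissue transglutaminase, a protein cross-linking enzyme induced by IL-4 in macrophages. It read 72.0 in the knockout against 93.9, 76.7% of the wild-type level (log2 ratio −0.38). Its signals were dim, and 280 of 2009 genes of like signal (13.9%) were as low or lower. Its relatives Tgm3, F13b and Epb42 were below the floor on both arrays.

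Il4ra encodes the receptor chain through which IL-4 and IL-13 signal. It was 1.17-fold higher in the knockout, at 663 against 565 (log2 ratio 0.23). Of the IL-4-induced genes, the members Chil3, Mrc1 and Tgm2 had ratios below 0, while Arg1, outside the set, had one above 0. The wider list of other alternative activation genes had 12 above and 12 below 0. A ratio as high as that of Il4ra occurred in 156 of 993 genes of like signal (15.7%). Transcripts of the cytokines Il4 and Il13 were below the floor on both arrays.

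Folr2 encodes folate receptor beta, a membrane-anchored folate-binding protein of tissue macrophages. It had the highest ratio of the set, 1.32-fold higher in the knockout, at 352 against 266 (log2 ratio 0.40). In its range of signal 63 of 993 genes (6.34%) were as high or higher. Among other folate genes, Ggh, which trims polyglutamates from folates, read 402 and 375, and the mitochondrial enzyme gene Mthfd2 read 1943 and 1936. Folr1, the epithelial receptor, was dim, with a knockout signal of 54.4 and a wild-type signal (12.7) under the floor.

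The genes around the set were taken from 8 lists. Of 139 listed genes 87 were matched and 60 were eligible, with 2 of them 2-fold or more higher (Arg1 and Ager), 1 lower (Tyk2) and a median log2 ratio of 0.03. Over all eligible genes, 1.23% were 2-fold higher and 1.07% lower. At 1.5-fold, 3 of the 60 were higher (against 6.37% of eligible genes) and 1 lower (against 5.72%).

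Other scavenger receptors numbered 10 eligible genes, 6 above and 4 below 0, with a median of 0.15. Cd36, the receptor for oxidised lipoprotein and fatty acids, was at 200 in the knockout against 266 in the wild type (−0.41). Scarb1, the receptor for high-density lipoprotein, was at 192.5 against 138.8 (0.47). Ager, the receptor for glycated proteins, was at least 2.20-fold higher, at 80.0, while the wild type fell short of the floor (17.6). The scavenger receptors of the set did not share a direction either, with Msr1 and Marco below 0 and Cd68 above.

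The list of other C-type lectins of myeloid cells had 6 eligible genes, 2 above and 4 below 0, with a median of −0.18. Of these, 0 were 1.5-fold apart. The list also holds a galectin gene, Lgals3, which was above 0, at 6829 in the knockout against 6468 in the wild type (0.08). The other gene above 0, Clec4a2, was dim, at 60.2 against 41.4 (0.54). Ly75, an endocytic relative of the mannose receptor, had the lowest ratio, at 246 in the knockout against 354 in the wild type (−0.53). Clec4e, the Mincle receptor for mycobacterial glycolipid, was at 316 against 409 (−0.37), and Clec4d, its partner, at 3158 against 3511 (−0.15). Mrc1 (−0.29) lay within the range of these genes.

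The IL-4 and IL-13 signalling list had 15 eligible genes, 8 above and 7 below 0, and a median of 0.02. Under median scaling it had 6 above and 9 below 0 and a median of −0.10. The kinase gene Tyk2 was 2.26-fold lower, but dim, at 44.7 in the knockout against 101 in the wild type. Grb2, an adaptor that links receptors to Ras and the MAP kinases, was at 417.8 against 243.5 (log2 ratio 0.78). Stat6 was at 229 against 252 (−0.14), Il13ra1 at 254 against 277 (−0.13) and Jak1 at 830 against 862 (−0.06). The feedback gene Cish was at 105 against 136 (−0.37).

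Other alternative activation genes had 24 eligible members, 12 above and 12 below 0, with a median of 0.04 that became −0.05 with the arrays scaled to the same median. Arg1, the arginase gene, was 2.31-fold higher, at 776 against 336. Slc7a2, a transporter that brings arginine into macrophages, was at 1445 against 1972 (−0.45), and Tfrc, the transferrin receptor gene, at 494 against 389 (0.34). Retnla, another common marker, was not analysed here.

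**Figure D3:**
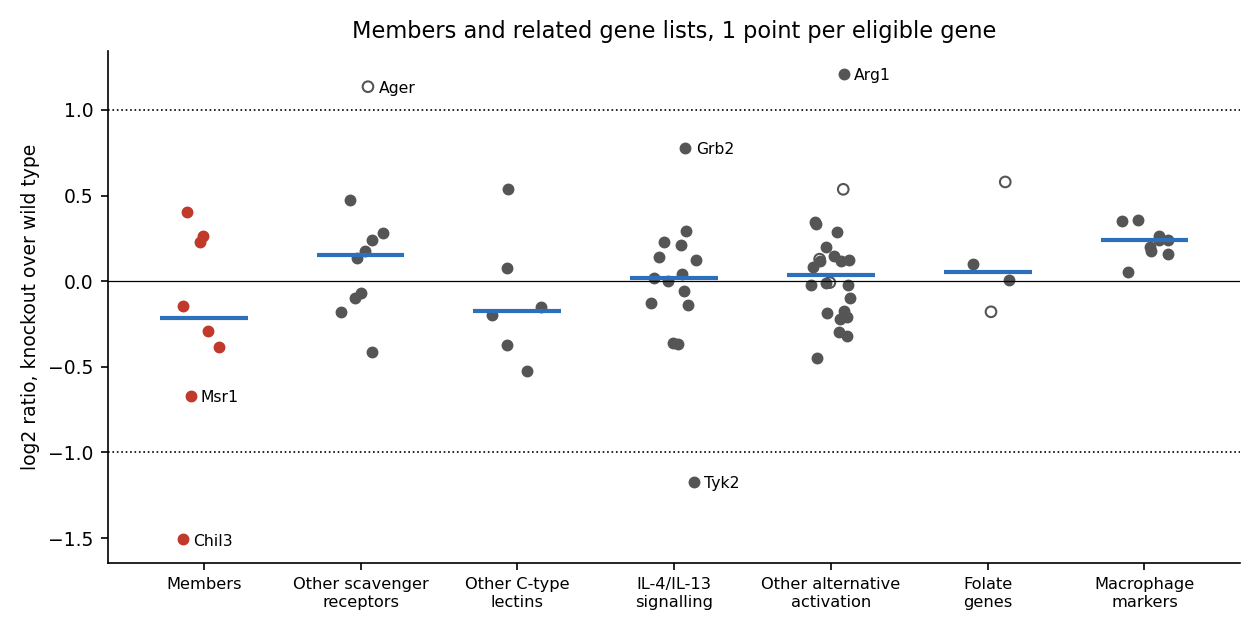
Log2 ratio of knockout over wild type of every eligible gene in the set, in 5 related lists and among macrophage markers (1 point per gene, blue lines at medians, open circles for genes with 1 signal below the floor, dotted lines at 2-fold). Genes 1.5-fold or more apart are named. Chil3 has the lowest value shown, Arg1 (1.21) and Ager the highest, and the value of Ager is a lower bound.

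The ratios of the 8 genes kept their sign under every processing choice that gave them a value. Several choices could hardly move them, so this is a limited check. The trimmed means were already equal, 6 of the 8 genes have 1 probe set, and all 8 had both signals above the reported floor. Scaling the arrays to the same median moved the median of all eligible genes from 0.02 to −0.10 and lowered each member by about the same amount. Under it Il4ra was at 0.11, Cd68 at 0.14 and Folr2 at 0.29, and Msr1 was at −0.79. Chil3 ranged from −1.63 to −1.30 over the choices. The value of −1.30 comes from a floor at the 75th percentile of signals, under which the knockout signal is below the floor and the ratio is a lower bound on the difference.

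**Figure D4:**
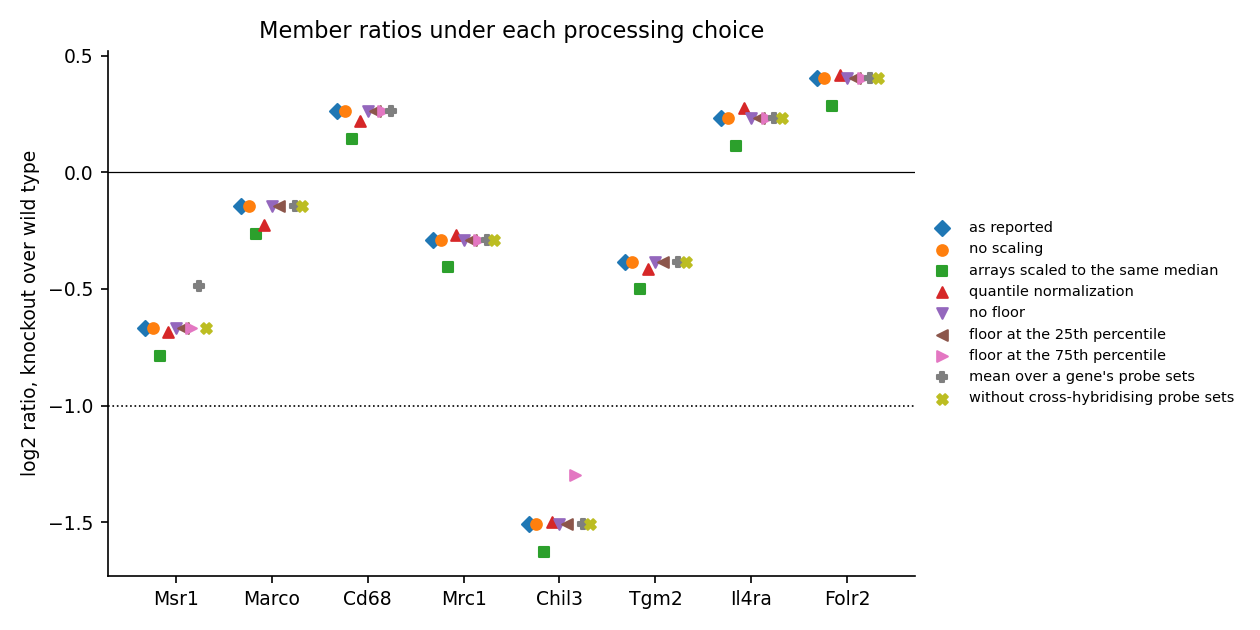
Log2 ratio of knockout over wild type of each member under the reported processing and 8 alternatives (symbols), with a dotted line at 2-fold lower. Chil3 stays below −1 in all of them, Msr1 lies between −0.79 and −0.49, and no member crosses 0. Several alternatives could hardly move a gene that has 1 probe set with both signals above the floor.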

How the data were processed

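The authors deposited linear-scale MAS5 intensities, 1 for each probe set on each array, per the submitters' processing notes, which give no version or settings. Probe sets (12654, of which 66 are controls) were named through the platform's annotation: 10276 had 1 symbol and were not controls, 363 had more than 1, and 1993 had no entry. The 2 arrays, 1 per genotype, were scaled to the same trimmed mean (2% from each end), signals were raised to the floor of 36.4, and log2 ratios were taken. A gene with several probe sets is represented by the brightest, and every probe set of the members is given. A difference with 1 signal below the floor is written as at least. Levels were not compared between probe sets, and the number of arrays limits the precision. Genes of the related lists are named if 2-fold apart. They are also named if among the 3 largest ratios of their list with a signal above 2 times the floor. Cell type markers are not all named by this rule. A few further genes were chosen for naming once their values were known. The members and lists were chosen with earlier results of these data known. Promoters came from RefSeq (GRCm38.p6, Biopython 1.88 for the alignment). Protein sequences were not used here. The ratio calculation was tested on simulated data (Python 3.11.15).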

Additional observations from a re-analysis of the deposited data

How the results depend on the processing

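Alternatives covered the scaling of the arrays, the floor, the choice of probe set and the size rule. Chil3 was the 1 member 2-fold or more lower in each of them, and with a 1.5-fold rule the count was 2, with Msr1. Several of the alternatives could hardly move Chil3, which has 1 probe set with both signals above the reported floor. Among the other listed genes, the count 2-fold higher was 2, and became 5 with no floor, 4 with a floor at the 25th percentile and 1 at the 75th. The count 2-fold lower was 1, and became 8, 4 and 0 in the same order. With no floor, dim signals enter as they are. A floor at the 75th percentile left Marco and Tgm2 without a value and moved the members' median from −0.22 to −0.03. Without probe sets whose suffix marks shared or cross-hybridising probes, Cd68 had no value. Over all eligible genes, 63 were 2-fold higher and 55 lower, and with the arrays scaled to the same median 43 and 86. No paired analysis was possible because each genotype has 1 array. Dim signals limit Marco and Tgm2, and nothing here bears on the spread between mice.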
